A study of Mus musculus with 6 samples.

Results

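The endoplasmic reticulum folding and degradation machinery is described here through 46 genes, taken by symbol from a table of 46095 genes in mouse 3T3-L1 cells. 3T3-L1 is a fibroblast line from mouse embryos that can be turned into fat cells in culture, and all cells were labelled adipocytes and collected 8 days after differentiation. The untreated group holds 3 samples that received no agent, and the other group holds 3 samples that received flavonoids of the plant Smilax glabra at 0.125 μg/mL. The deposited values are FPKM (fragments counted on a gene, scaled by its transcript length and by the size of the library), so levels can be compared between genes per length. The 46 symbols were chosen with earlier results of these data in view and were ordered by role into 9 sensors and transcription factors, 13 chaperones, 9 disulfide enzymes, 13 degradation genes and 2 genes of protein entry.

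Proteins bound for secretion or membranes enter the endoplasmic reticulum through a channel, are folded there by chaperones and are tied by disulfide bonds. Chains that do not fold are drawn back to the cytosol and destroyed by the proteasome. When unfolded chains pile up, the sensors IRE1, ATF6 and PERK start the unfolded protein response, in which the factors XBP1 and ATF6 raise chaperone and degradation genes and PERK favours the factor ATF4. Adipocytes secrete hormones and matrix proteins and so depend on this machinery.

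Of the 46 genes, 44 reached a mean of 1 FPKM over the 6 samples and were tested. With flavonoids 11 rose and 0 fell (adjusted p under 0.05, from limma with log2(FPKM + 1) as the scale and Benjamini-Hochberg adjustment across 11464 genes tested). Those that rose were the chaperone genes Hspa5, Hyou1, Manf, Sdf2l1 and Dnajb9, the disulfide enzyme genes Pdia5 and Creld2, the degradation genes Herpud1, Derl1 and Vimp, and the transcription factor gene Xbp1. They make up 25.0% of the tested members, where over all genes tested 4.86% were higher and 5.13% lower, or 9.99% in all. At an unadjusted p under 0.05, 15 members were higher and 0 lower. The share of all genes at that unadjusted p was not computed, so this count has no background beside it. Run on recovered fragments, voom called 11 members higher and 0 lower, beside 4.78% and 5.35% of all genes. The median log2 change of the 44 was 0.27, beside -0.02 over all genes tested, and 33 had a positive and 11 a negative estimate. In 19 members every flavonoid value lay above every untreated value, and in 1 member (Creld1) every one lay below, where 17% and 17.3% of all genes tested separated in these directions, or 34.3% in all.

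**Figure D1:**
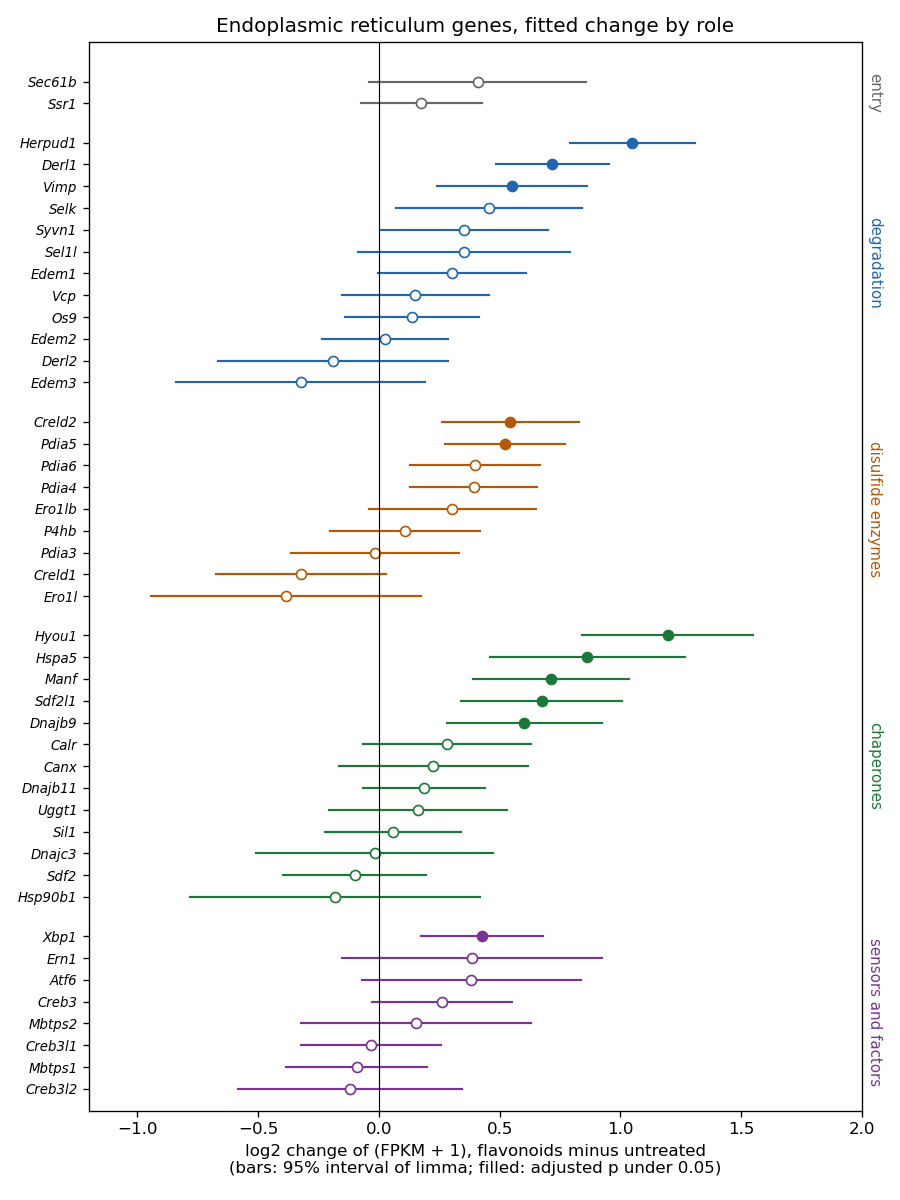
Fitted log2 change of each of the 44 tested members, grouped by role, with points for the estimate, bars for the 95% interval and filled points for an adjusted p under 0.05. Filled points appear in every role except entry, and the largest estimates are those of Hyou1 (1.20) and Herpud1 (1.05).

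The libraries held between 21952064 and 26355863 fragments, as worked back from the steps between FPKM values. Summed over all genes, FPKM came to 524930, 477408 and 424479 in untreated replicates 1, 2 and 3. In flavonoids libraries the sum ran from 488458 to 496079. Groups are called apart or overlapping by FPKM as deposited. The separations of Calr, Pdia4 and Ssr1 do not hold after division by these sums, since untreated replicate 3 then overlaps the treated libraries. The counts of separated genes were not redone on that scale. The labels do not state that replicates were grown as separate cultures, and the p-values therefore rest on a spread that could be technical. Libraries of a group differed along gene length and base composition. Over 11464 genes, the deviation of untreated replicates 1, 2 and 3 from their group mean had a Spearman rho with gene length of -0.75, -0.12 and 0.73. Over 11156 genes, the deviation of flavonoids replicates 1, 2 and 3 had a rho with transcript GC content of -0.58, -0.53 and 0.68. Genes are not independent replicates, and these values are descriptions. With each library's trends over length and GC removed, 21 members were higher and 1 was lower, beside 14.2% higher and 14.4% lower over all 11156 genes that could be so adjusted. Without untreated replicate 3 and flavonoids replicate 3, 17 members were higher and 0 lower, beside 7.25% and 8.23% of all genes. This setting and the joint removal of length and GC trends were chosen after seeing the data. The same holds where they are given for single genes below. Other settings gave fewer calls, both among the members and over all genes. With no filter on low values 4 members were higher and 0 lower, beside 1.43% and 1.46% of 22235 genes. Without untreated replicate 2, 2 members were higher and 0 lower, beside 0.567% and 0.707% of all genes. Without flavonoids replicate 1, 2 or 3, the members that were higher numbered 3, 3 and 5, beside 0.829%, 1.33% and 2.17% of all genes.

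As a check of the cell type label, 8 of 12 adipocyte markers stayed below 1 FPKM in all 6 libraries, among them Adipoq, Plin1 and Cd36. Fabp4 lay between 149 and 251 FPKM (mean 219 untreated and 170 treated) and Lpl between 144 and 306 FPKM (mean 163 and 262). Pparg averaged 10.8 and 11.6 FPKM and Cebpa 7.18 and 5.82 FPKM. Of these 4 adipocyte markers tested, 0 passed the test. With length and GC trends removed Lpl was higher (limma adjusted p = 0.00159) and Cebpa lower (0.043), beside 14.2% and 14.4% of all genes. The summed level of the 12 was 386 to 416 FPKM in untreated and 346 to 518 FPKM in treated libraries. Of 7 preadipocyte and fibroblast markers 6 were tested. In all 6 every treated value lay below every untreated value, as in 17.3% of all genes tested. By the test 2 fell, beside 5.13% of all genes. With length and GC trends removed all 6 were lower, beside 14.4% of all genes. The sum of the 7 ran from 1320 to 1693 FPKM untreated and from 1025 to 1136 FPKM treated. In bulk RNA a change in cell makeup and a change in RNA per cell cannot be told apart, and the part of these markers in the results was not tested. The sum of 5 macrophage markers was at most 4.46 FPKM with Ptprc listed at 0, that of 4 endothelial markers at most 0.281 FPKM with Cdh5 and Kdr at 0, and that of 4 skeletal muscle markers at most 2.55 FPKM with Myod1 and Ckm at 0.

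Several promoters of this gene set carry the letters that XBP1 and ATF6 are known to read, and they are shown because the genes behind them did not all move. The endoplasmic reticulum stress element (ERSE) was searched as CCAAT, any 9 bases and CCACG, a shorter form (ERSE-II) as ATTGG, any 1 base and CCACG, the unfolded protein response element core as TGACGTGG and the C/EBP-ATF response element read by ATF4 as TGATGNAA, all on both strands. The windows are those of RefSeq on GRCm38.p6, 250 bases before to 50 after each gene start, and 40 of the 46 members had one (all but Atf6, Creb3l1, Hyou1, Sil1, Manf and Derl1). ERSE was found in 10 of 40 members (25.0%) and in 39 of 32851 windows of all genes (0.119%). ERSE was itself defined on promoters of such chaperone genes, so the contrast is no independent finding. ERSE-II was found in Herpud1 and Dnajb11 (0.037% of all windows), the unfolded protein response element core in Vcp (0.676%) and the C/EBP-ATF element in Herpud1 (3.969%). Each stretch below reads 5′ to 3′ along the gene's strand, with the motifs in capitals.
Hspa5 (chr2:34772020-34772048, plus strand, ERSE): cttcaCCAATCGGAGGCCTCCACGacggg
Creld2 (chr15:88819490-88819568, plus strand, ERSE in reverse): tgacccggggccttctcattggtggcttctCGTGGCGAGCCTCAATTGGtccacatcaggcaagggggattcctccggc
Herpud1 (chr8:94386287-94386417, plus strand, C/EBP-ATF element in reverse, then ERSE-II): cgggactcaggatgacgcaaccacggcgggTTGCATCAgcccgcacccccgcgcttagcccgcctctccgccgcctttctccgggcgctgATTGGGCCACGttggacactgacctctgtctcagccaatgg
Pdia6 (chr12:17266461-17266539, plus strand, ERSE): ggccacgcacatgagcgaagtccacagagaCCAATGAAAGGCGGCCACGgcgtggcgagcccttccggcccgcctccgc
Canx (chr11:50325770-50325848, minus strand, ERSE): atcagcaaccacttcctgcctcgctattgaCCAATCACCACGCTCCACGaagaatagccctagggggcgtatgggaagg
Hsp90b1 (chr10:86705513-86705676, minus strand, ERSE forward and in reverse): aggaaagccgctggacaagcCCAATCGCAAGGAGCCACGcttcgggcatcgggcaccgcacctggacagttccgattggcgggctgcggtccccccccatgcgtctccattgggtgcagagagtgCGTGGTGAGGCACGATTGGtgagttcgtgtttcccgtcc

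Hspa5, Creld2 and Herpud1 rose, while Pdia6, Canx and Hsp90b1 did not pass the test. Hspa5, Creld2, Hsp90b1, Dnajc3, Calr, Canx, Pdia6, Ero1lb and Syvn1 are the 9 tested members with an ERSE in the window, and 2 of them rose, with changes from -0.18 to 0.86 and a median of 0.30 on the log2 scale. Derl3 also holds one but was not tested. Of the 29 tested members with a window and no ERSE, 6 rose, with changes from -0.38 to 1.05 and a median of 0.18. With length and GC trends removed, 5 of the 9 and 12 of the 29 were higher, where the share higher over all genes also went up, from 4.86% to 14.2%. A match is a run of letters and was not tested for binding.

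Among the sensors and factors, Xbp1 was the member that rose, 1 of 8 tested, beside 4.86% over all genes. The median log2 change in the group was 0.21. The XBP1 protein is the factor made after IRE1 splices the Xbp1 transcript, a step that these gene totals do not show. Xbp1 (chromosome 11, 5520659 to 5525893, GRCm38 as for all positions given) measured 53.0, 46.6 and 44.9 FPKM in untreated replicates 1, 2 and 3 and 63.6, 66.4 and 64.7 FPKM in flavonoids replicates 1, 2 and 3. The treated values lay close together and above all untreated ones. The log2 change was 0.43 (SE 0.11, n = 3 per group, limma adjusted p = 0.0449), just inside the threshold. It missed the threshold without untreated replicate 2 (adjusted p = 0.211) or flavonoids replicates 1, 2 or 3 (0.15, 0.171 and 0.0981), with no filter on low values (0.0585) or with no variance trend (0.0617), and reached 0.00888 with length and GC trends removed.

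Ern1, which encodes IRE1, and Atf6 were expressed at low levels. Ern1 ran from 1.10 to 3.18 FPKM untreated and from 2.70 to 3.38 FPKM treated, and Atf6 from 3.30 to 5.97 and from 5.03 to 7.17 FPKM. Both sets of values overlapped between groups, and in both genes untreated replicate 1 was lowest and untreated replicate 3 highest among untreated libraries. Neither passed the test (log2 change 0.39 with a 95% interval of -0.15 to 0.92 for Ern1, and 0.38 with -0.07 to 0.83 for Atf6). With length and GC trends removed Atf6, whose transcript length implied by the steps was 7512 bases, was higher (log2 change 0.57, adjusted p = 0.00269), while Ern1 had an adjusted p of 0.219.

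Mbtps1 and Mbtps2 encode the site-1 and site-2 proteases that release ATF6 and its relatives from the membrane in the Golgi. Mbtps1 was abundant for this group at 116 ± 15.3 FPKM untreated and 109 ± 4.31 FPKM treated (SD, n = 3), a log2 change of -0.09 with an interval of -0.38 to 0.20. Mbtps2 ran from 2.96 to 4.96 and from 3.21 to 5.49 FPKM, and it was higher with length and GC trends removed (log2 change 0.43, adjusted p = 0.0143). Creb3, Creb3l1 and Creb3l2 encode ATF6-like membrane factors, of which the last pair are known for raising the secretory capacity of collagen-making cells. Creb3 lay at 24.4 to 32.4 FPKM untreated and at 33.8 to 35.6 FPKM treated without overlap, but with an adjusted p of 0.228. Creb3l1 measured 64.0 ± 7.29 and 62.4 ± 5.73 FPKM, and Creb3l2 14.6 ± 4.74 and 12.9 ± 0.855 FPKM, with intervals on the log2 scale of -0.32 to 0.26 and -0.58 to 0.34. Atf6b was listed between 0 and 0.0529 FPKM and was not tested. It lies on chromosome 17 (34647146 to 34655074) where none of its 20 nearest protein-coding genes in the table reached 1 FPKM and 9 were at 0 throughout, beside 47.5% of 20638 protein-coding genes that reached 1 FPKM, and whether reads of that stretch were counted was not tested.

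In the chaperone group 5 of 13 tested members rose and 0 fell, beside 4.86% and 5.13% over all genes, with a median log2 change of 0.23. Hspa5 encodes BiP, the main chaperone of the compartment, which also holds the sensors inactive (chromosome 2, 34771970 to 34777547). It measured 357, 315 and 382 FPKM in untreated replicates 1, 2 and 3 and 781, 648 and 512 FPKM in flavonoids replicates 1, 2 and 3. All treated libraries were above all untreated ones, with flavonoids replicate 3 lowest of the treated. The mean rose 1.84-fold (log2 change 0.86, SE 0.18, limma adjusted p = 0.0202). The call was lost without untreated replicate 2 (adjusted p = 0.125), flavonoids replicate 1 (0.0933) or flavonoids replicate 2 (0.0796), and with no filter on low values (0.0782). By level Hspa5 was the fourth of the 44 tested members untreated and the second treated.

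Hyou1, a large relative of BiP that exchanges its nucleotide (chromosome 9, 44379490 to 44392369), had the largest change of all members. Its values were 17.3, 17.5 and 23.8 FPKM untreated and 48.5, 39.2 and 49.7 FPKM treated. The gap between the groups was wider than the spread within either. It rose 2.35-fold (log2 change 1.20, SE 0.16, limma adjusted p = 0.00453) and passed the threshold in all 22 alternatives. Sil1 encodes the other exchange factor for BiP and measured 13.1 ± 0.264 and 13.7 ± 1.69 FPKM (SD, n = 3), with an interval of -0.22 to 0.34 on the log2 scale. In the same libraries the ratio of Hyou1 to Sil1 FPKM was 1.29, 1.35 and 1.84 untreated and 3.60, 3.22 and 3.20 treated.

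**Figure D2:**
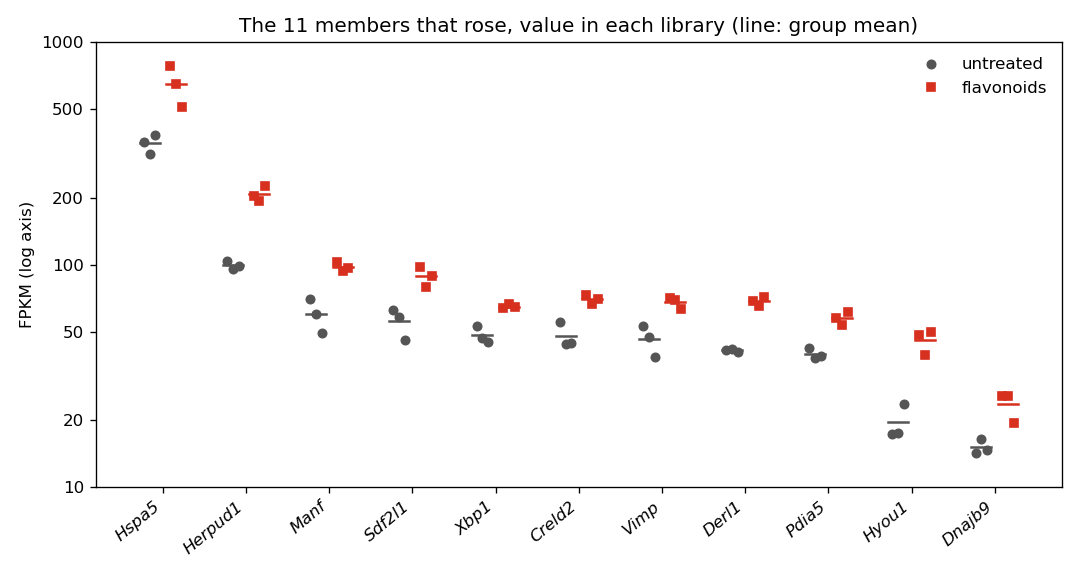
FPKM on a log axis for each of the 11 members that rose, with circles for the 3 untreated and squares for the 3 flavonoid-treated libraries and lines at the group means. For each gene the squares sit above the circles, with the widest gaps at Hyou1 (19.5 against 45.8 FPKM) and Herpud1 (99.8 against 208 FPKM).

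Manf, Sdf2l1 and Dnajb9 are small partners of BiP. Manf, which binds BiP and can also be secreted (chromosome 9, 106838312 to 106891979), measured 70.4, 59.7 and 49.4 FPKM untreated and 103, 93.4 and 96.7 FPKM treated. Sdf2l1, which keeps the J-protein ERdj3 working with BiP (chromosome 16, 17130138 to 17132383), measured 62.7, 58.2 and 46 FPKM untreated and 98, 79.6 and 89.1 FPKM treated. In both genes untreated replicate 3 was the lowest library, and the groups did not overlap. Dnajb9 encodes ERdj4, a J-protein that brings BiP to IRE1 and to misfolded chains (chromosome 12, 44205559 to 44210326), and it went from 14.2, 16.4 and 14.7 FPKM to 25.8, 25.6 and 19.4 FPKM. The log2 changes were 0.71 for Manf, 0.67 for Sdf2l1 and 0.60 for Dnajb9, with limma adjusted p-values of 0.0182, 0.024 and 0.0315. All 3 calls were lost without untreated replicate 2 (adjusted p = 0.0991, 0.101 and 0.104), flavonoids replicate 1 (0.0889, 0.113 and 0.14) or flavonoids replicate 2 (0.0615, 0.0574 and 0.127), and those of Manf and Sdf2l1 also without flavonoids replicate 3 (0.0658 and 0.0817). With no filter on low values the adjusted p-values were 0.0578 for Manf, 0.0707 for Sdf2l1 and 0.0779 for Dnajb9, and Dnajb9 also missed the threshold on the TPM scale (0.0622).

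Sdf2 is the close relative of Sdf2l1 and did not pass the test. It measured 87.3, 76.7 and 65.3 FPKM untreated and 73.0, 71.0 and 68.3 FPKM treated, so that the groups overlapped, and its log2 change was -0.10 (interval -0.40 to 0.19). It was the member that was lower with length and GC trends removed (log2 change -0.21, adjusted p = 0.0417). The ratio of Sdf2l1 to Sdf2 was 0.718, 0.759 and 0.704 in untreated libraries and 1.34, 1.12 and 1.3 in treated ones. Dnajb11, which encodes ERdj3, lay at 90.2 to 104 FPKM untreated and at 106 to 111 FPKM treated, apart but with an adjusted p of 0.319. Dnajc3, a J-protein gene that also restrains PERK, ran from 8.18 to 12.2 and from 6.76 to 11.6 FPKM.

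Hsp90b1 encodes the heat shock protein of this compartment that is often raised together with BiP. Its values were 199, 191 and 259 FPKM untreated and 250, 225 and 119 FPKM treated. Flavonoids replicates 1 and 2 lay within the untreated range and replicate 3 far below it, so the groups overlapped and the log2 change was -0.18 with a wide interval of -0.78 to 0.42. The transcript is 43.8% GC, and with length and GC trends removed the change was -0.07 (adjusted p = 0.825). The ratio of Hspa5 to Hsp90b1 was 1.80, 1.64 and 1.48 in untreated libraries and 3.13, 2.88 and 4.29 in treated ones, although both promoters hold an ERSE. That ratio, like the others given, was chosen after the values were seen and is a description with no test. Of the ratios computed, that of Edem1 to Edem2 overlapped between groups, at 0.271 to 0.388 untreated and 0.335 to 0.453 treated. Those of Hspa5 to Calr (0.398 to 0.437 and 0.44 to 0.812) and of Herpud1 to Sel1l (3.53 to 6.33 and 6.43 to 9.09) nearly touched.

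The lectin chaperones hold sugar-bearing chains, with Uggt1 as the enzyme that sends unfinished ones back to them. Calr, calreticulin, was the most abundant member in both groups at 843, 791 and 874 FPKM untreated and 962, 937 and 1165 FPKM treated. The groups were apart in FPKM, yet the change of 0.28 (interval -0.06 to 0.63) did not pass the test, with an adjusted p of 0.276. Canx, calnexin, measured 65.9, 76.2 and 87.8 FPKM untreated and 104, 96.8 and 70.6 FPKM treated. Flavonoids replicate 3 lay within the untreated range, and the adjusted p was 0.441. At 42.2% GC and 4317 bases, Canx was higher with length and GC trends removed (log2 change 0.43, adjusted p = 0.00267), and without untreated and flavonoids replicates 3 (adjusted p = 0.0206). Uggt1 ran from 10.5 to 16.3 and from 13.3 to 15.3 FPKM.

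**Figure D3:**
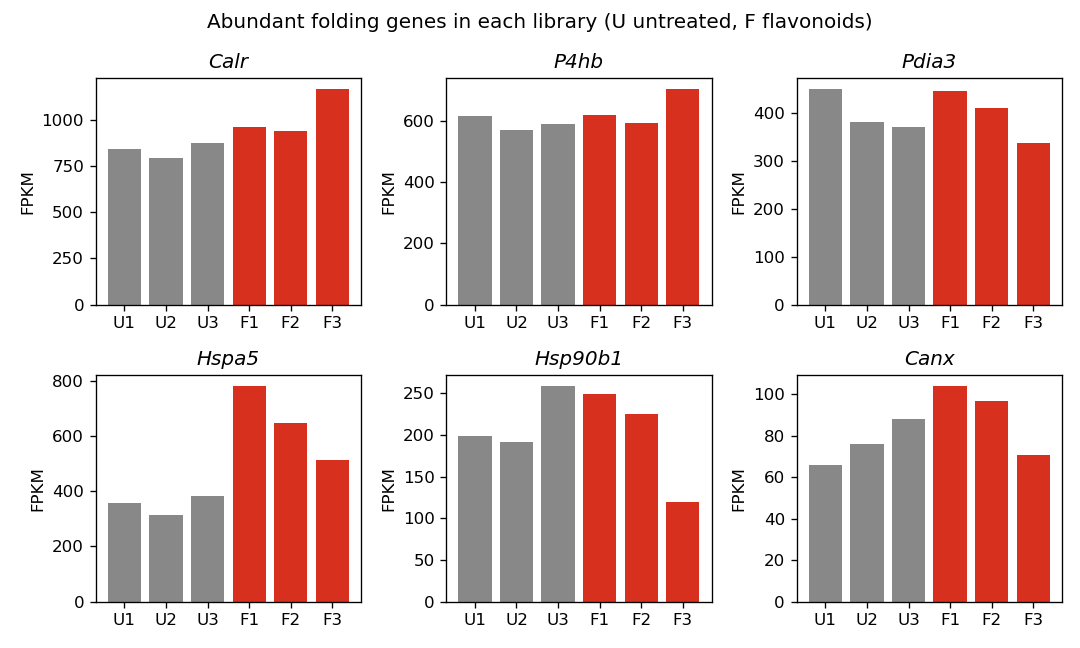
FPKM of 6 abundant folding genes in each library, with grey bars for untreated (U1 to U3) and red bars for flavonoid-treated libraries (F1 to F3), each panel on its own axis from 0. Hspa5 stands higher in all 3 treated libraries (512 to 781 against 315 to 382 FPKM), while Hsp90b1, Pdia3 and Canx drop in F3 into or below the untreated range.

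In the disulfide group 2 of 9 tested members rose and 0 fell, beside 4.86% and 5.13% over all genes, with a median log2 change of 0.30. Pdia5, a protein disulfide isomerase known for activating ATF6 under stress (chromosome 16, 35397312 to 35490873), measured 42.1, 38.2 and 38.8 FPKM untreated and 57.6, 53.5 and 61.2 FPKM treated. The groups were well apart, with a log2 change of 0.52 (SE 0.11, limma adjusted p = 0.0213). Creld2, an isomerase-like protein induced by stress of this compartment (chromosome 15, 88819646 to 88826683), went from 55.1, 44 and 44.4 FPKM to 73.1, 66.6 and 69.9 FPKM. Untreated replicate 1 was the library nearest to the treated ones, and the change was 0.54 (SE 0.12, adjusted p = 0.0288). Both calls were lost without untreated replicate 2 (adjusted p = 0.136 for Pdia5 and 0.162 for Creld2) or without flavonoids replicate 1 (0.102 and 0.13), 2 (0.0711 and 0.0905) or 3 (0.0653 and 0.082), and that of Creld2 with no filter on low values (0.0608). Creld1, a relative of Creld2 in the membrane, measured 2.18, 1.82 and 2.08 FPKM untreated and 1.35, 1.80 and 1.14 FPKM treated, which is the opposite direction, with an adjusted p of 0.221. The ratio of Creld2 to Creld1 was 21.3 to 25.3 untreated and 37.0 to 61.4 treated.

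Pdia4 and Pdia6, further isomerases that work beside BiP, lay just outside the threshold. Pdia4 measured 103, 105 and 108 FPKM untreated and 143, 125 and 150 FPKM treated, with a log2 change of 0.39 and a limma adjusted p of 0.067. Pdia6 measured 144, 129 and 128 FPKM untreated and 192, 171 and 166 FPKM treated, with a change of 0.40 and an adjusted p of 0.0692. In both the groups were apart in FPKM, and both were higher with length and GC trends removed (adjusted p = 0.0176 and 0.0107). Pdia6 was also higher without untreated replicate 1 (0.0402) and Pdia4 without untreated replicate 3 (0.0434). With other single libraries left out, the limma adjusted p reached 0.273 for Pdia6 and 0.25 for Pdia4.

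The most abundant isomerases gave small estimates. P4hb, the classical isomerase and a subunit of collagen prolyl hydroxylase, measured 617, 571 and 589 FPKM untreated and 620, 595 and 705 FPKM treated. Pdia3, the partner of calnexin and calreticulin, measured 450, 381 and 372 FPKM untreated and 445, 410 and 338 FPKM treated. The groups overlapped for both, with log2 changes of 0.11 (interval -0.20 to 0.42) and -0.01 (interval -0.36 to 0.33). The ratio of Hspa5 to Pdia3 was 0.794, 0.827 and 1.03 untreated and 1.75, 1.58 and 1.51 treated.

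The oxidases that recharge the isomerases did not pass the test. Ero1l, a gene also known to be induced by low oxygen, measured 35.5, 45.9 and 57.7 FPKM untreated and 46.5, 36.8 and 24.2 FPKM treated. Each group spread widely and they overlapped, with a log2 change of -0.38 (interval -0.94 to 0.17) at 41.6% GC and 4447 bases. Its relative Ero1lb was near the floor of testing, at 0.876 to 1.05 FPKM untreated and 1.28 to 1.82 FPKM treated, from at least 82 fragments per library. Its groups were apart, and the adjusted p was 0.238, or 0.0219 with length and GC trends removed.

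**Figure D4:**
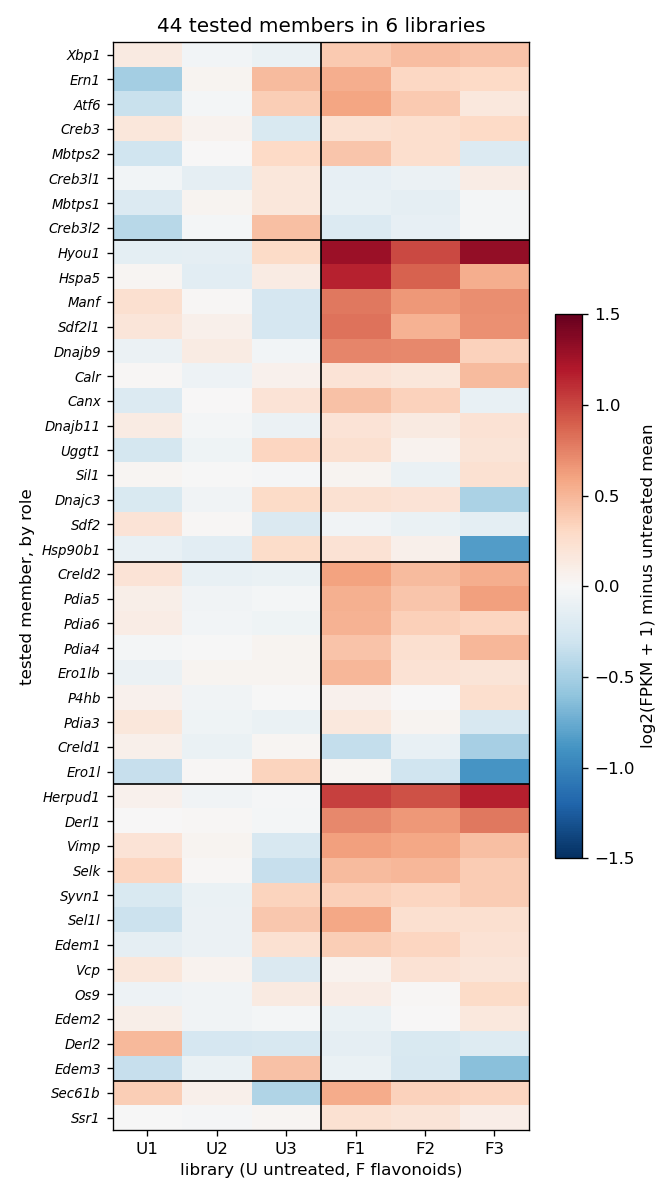
Log2(FPKM + 1) of the 44 tested members in each library minus the gene's untreated mean, with red for higher and blue for lower, and black lines between roles (sensors and factors, chaperones, disulfide enzymes, degradation, entry, from the top). Hyou1 and Herpud1 are red in all 3 treated libraries, whereas Hsp90b1 and Dnajc3 are blue in F3 alone among the treated libraries, Ero1l in F2 and F3, and Edem3 in all 3.

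In the degradation group 3 of 12 tested members rose and 0 fell, beside 4.86% and 5.13% over all genes, with a median log2 change of 0.33. Herpud1, a scaffold protein of the ligase complex that draws misfolded chains out of the membrane (chromosome 8, 94386438 to 94395377), measured 104, 96.0 and 98.9 FPKM untreated and 204, 194 and 225 FPKM treated. Both groups were tight and far apart. It rose 2.08-fold (log2 change 1.05, SE 0.11, limma adjusted p = 0.0029) and passed the threshold in all 22 alternatives. Its promoter stretch shown above holds both an ERSE-II and a C/EBP-ATF element. Derl1, a channel protein of the same complex (chromosome 15, 57869502 to 57892448), went from 41.5, 41.8 and 40.4 FPKM to 68.7, 65.1 and 71.8 FPKM. The untreated values were nearly the same, and the change was 0.72 (SE 0.10, adjusted p = 0.00591). That call was lost in 1 of 22 alternatives, without untreated replicate 2 (adjusted p = 0.0537).

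The relatives of Derl1 were scarce. Derl2 measured 3.09, 1.46 and 1.48 FPKM untreated and 1.65, 1.49 and 1.55 FPKM treated, with untreated replicate 1 above all others and a log2 change of -0.19 (interval -0.66 to 0.29). Derl3, best known from secretory tissue, was listed at 0 in all 6 libraries and was not tested. Around it on chromosome 10, 45.0% of the 20 nearest protein-coding genes reached 1 FPKM, close to the 47.5% over all.

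Vimp and Selk are older symbols of Selenos and Selenok, selenoprotein genes whose products tie the ATPase encoded by Vcp to the membrane. Vimp (chromosome 7, 66079649 to 66089405) measured 53.0, 47.4 and 38.6 FPKM untreated and 71.2, 69.1 and 63.5 FPKM treated. It rose by a log2 change of 0.55 (SE 0.14, limma adjusted p = 0.0386), and the call was lost without untreated replicate 2 (0.145) or flavonoids replicate 1, 2 or 3 (0.152, 0.131 and 0.081), and with no filter on low values (0.0872). Selk measured 163, 132 and 102 FPKM untreated and 182, 185 and 171 FPKM treated. The groups were apart, but the untreated libraries spread so far that the adjusted p was 0.125. At an implied length of 1025 bases Selk was higher with length and GC trends removed (log2 change 0.43, adjusted p = 0.0013), and without untreated replicate 1 (0.023). With other single libraries left out, its limma adjusted p reached 0.299. Vcp itself measured 17.8 ± 2.54 and 19.8 ± 1.29 FPKM (SD, n = 3), with an interval of -0.15 to 0.45 on the log2 scale.

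Syvn1 encodes the ubiquitin ligase of this complex and Sel1l its adaptor. Syvn1 measured 24.4, 26.7 and 36.5 FPKM untreated and 37.1, 36.1 and 37.8 FPKM treated, and Sel1l 16.5, 19.6 and 28.0 against 31.7, 24.8 and 24.8 FPKM. In both, untreated replicate 3 was the highest of its group and overlapped the treated range. Neither passed the test (adjusted p = 0.177 and 0.283), and both did without untreated replicate 3 (0.0147 and 0.0391). With other single libraries left out, the limma adjusted p reached 0.444 for Syvn1 and 0.57 for Sel1l. With length and GC trends removed Sel1l was higher (adjusted p = 0.0135) and Syvn1 was not (0.0789).

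Lectins and mannosidases that pick out chains for degradation did not pass the test. Edem1 measured 9.26, 9.56 and 12.2 FPKM untreated and 13.6, 13.1 and 12 FPKM treated, overlapping by 1 library, with an adjusted p of 0.192 and of 0.00556 with length and GC trends removed. Edem2 measured 32.1 ± 1.84 and 32.8 ± 3.04 FPKM (SD, n = 3; interval -0.24 to 0.29). Edem3 ran from 2.11 to 4.37 FPKM untreated and from 1.56 to 2.68 FPKM treated, with a change of -0.32 (interval -0.84 to 0.19). Os9, a lectin that hands chains to Sel1l, measured 49.7 ± 4.17 and 54.8 ± 5.51 FPKM.

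At the entry channel Sec61b, a small subunit, measured 99.1, 80.6 and 55.4 FPKM untreated and 112, 97.2 and 95.8 FPKM treated. The SD of the untreated libraries, 22.0 FPKM, was close to the difference between the group means of 78.4 and 102 FPKM, and the adjusted p was 0.227. It was higher without untreated replicate 1 (0.0469) and with length and GC trends removed (0.0373), at the shortest implied length of the tested members, 556 bases. With other single libraries left out, its limma adjusted p reached 0.456. Ssr1, a subunit of the channel's associated complex, lay at 11.7 to 12.2 FPKM untreated and 12.8 to 14.2 FPKM treated. Its groups were apart in FPKM, but with an adjusted p of 0.346.

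Beyond these members, 105 other genes of the secretory pathway were listed, of which 102 were tested, 8 rose and 1 fell, with a median log2 change of 0.11. These are 7.84% and 0.98% of those tested, beside 4.86% and 5.13% over all genes, so the counts that rose lay near that background. By list, 2 of 21 tested for entry, 1 of 13 for glycosylation, 2 of 27 for other folding factors, 2 of 23 for degradation and 1 of 18 for export rose. Sec61a1, the channel itself, went up from 95.5 ± 9.25 to 153 ± 13.5 FPKM (adjusted p = 0.0146, SD with n = 3), and Srprb, a subunit of the signal recognition particle receptor, from 24.4 ± 1.48 to 34.6 ± 1.86 FPKM. Stt3a, the catalytic subunit of oligosaccharyltransferase, rose by a log2 change of 0.46, Txndc11 by 0.50, Erlin1 by 0.53, Ubxn8 by 0.57 and the export coat gene Sec23b by 0.54. Cnpy4 was the gene that fell, from 58.7 ± 3.09 to 36.7 ± 1.47 FPKM (adjusted p = 0.00851). Each of these 8 calls was lost without untreated replicate 2 (adjusted p from 0.0771 for Cnpy4 to 0.196 for Stt3a) and without flavonoids replicate 1 (from 0.0571 for Cnpy4 to 0.162 for Stt3a). Without flavonoids replicate 2 all but Cnpy4 were lost (0.0555 for Sec61a1 to 0.127 for Stt3a), and without flavonoids replicate 3 all but Cnpy4 and Erlin1 (0.0532 for Sec61a1 to 0.0791 for Stt3a). On the TPM scale all but Sec61a1 and Cnpy4 were lost (0.0604 for Ubxn8 to 0.114 for Stt3a), with no filter Stt3a, Ubxn8 and Erlin1 (0.0576, 0.0694 and 0.0659), and Stt3a also with quantile normalization (0.0729) or no variance trend (0.0517).

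The PERK and ATF4 arm, listed with 14 genes, had 8 of 13 tested members up and 0 down, with a median log2 change of 0.68. Over all genes tested, 4.86% were higher and 5.13% lower. The list was drawn broadly and also holds Ern2, Wfs1 and Nck1, and whether PERK lay behind these changes was not tested. Ddit3, which encodes CHOP, rose by 1.49 and Trib3, a pseudokinase gene, by 1.47 on the log2 scale. Atf4 rose by 0.68 (limma adjusted p = 0.0408), a call that was lost without untreated replicate 2 (0.183), without flavonoids replicate 1, 2 or 3 (0.156, 0.13 and 0.113) and with no filter on low values (0.125). The calls of Ddit3 and Trib3 were kept in all 22 alternatives. Eif2ak3, the gene of PERK, measured 7.99 ± 1.5 and 7.54 ± 0.373 FPKM (SD, n = 3), with an adjusted p of 0.822. The 3 sensor genes Ern1, Atf6 and Eif2ak3 thus had adjusted p-values of 0.335, 0.258 and 0.822, and how active their proteins were cannot be read from these totals.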

How the data were processed

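Total RNA of 6 samples was made into TruSeq libraries, per the labels. The authors deposited FPKM values for 46095 genes. FastQC, HISAT2 and the build mm10 are named in the submitters' processing notes, while strand, annotation and counting tool were not given in the sources used here, so reads of close copies or overlapping genes cannot be assigned with certainty. The fit used limma 3.58.1 in R 4.3.3, without covariates and with an intensity trend, on log2 of FPKM plus a pseudocount of 1, for genes averaging 1 FPKM or more. This scale understates changes of weakly expressed genes. Whole fragments were solved from FPKM steps for all 22235 genes above 0 (tolerance 0.005 fragments). Scripts were tested on simulated data. Members, lists and motif letters were chosen with earlier results of these data or the sequences in view. All 46 members are described, and of other pathway genes the called ones of smallest p, at most 2 per list, plus Ddit3, Atf4 and Eif2ak3. Positions come from GENCODE M21. Promoter stretches end before the GENCODE gene, except that of Hspa5, which was kept to 29 bases because the GENCODE gene starts ahead of the RefSeq start used for the window. Python 3.11.15 was used for the rest. Libraries of a group differed far beyond counting noise (chi-square per degree of freedom 6.12 to 112), so none was a copy. Alternatives changed the pseudocount, the filter, the scale, the trend setting, the method and the libraries used, with trends in GC, or length and GC together, chosen after seeing the data.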

Additional observations from a re-analysis of the deposited data

How the results depend on the processing

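Beside the 11 higher members, 4 were called with the replicate block, where 1.92% of all genes were higher. Without a filter on low values 4 were called, where 1.43% of all genes were higher. The block ended the calls of Xbp1 (adjusted p = 0.0966), Hspa5 (0.0582), Dnajb9 (0.0619), Sdf2l1 (0.0527), Pdia5 (0.0586), Creld2 (0.0564) and Vimp (0.0571). Among the genes of the PERK arm named, it ended those of Atf4 (0.0748) and Wfs1 (0.0514). Among the other secretory genes named, it ended those of Srprb (0.0652), Stt3a (0.088), Txndc11 (0.0764), Erlin1 (0.082), Ubxn8 (0.0848) and Sec23b (0.0663). Sec61a1 (0.0398) and Cnpy4 (0.0367) kept theirs. Same-numbered libraries had correlations of -0.14, -0.12 and -0.20 in their deviations from the group means. No untreated library correlated best with the treated library of its own number. These deviations also follow the length and GC trends of single libraries, so they cannot decide whether replicates were paired. Removing each library's length trend gave 18 higher members, 19 together with the replicate block (a combination chosen after seeing the data), and a median log2 change of 0.32 in both. Calls over all genes went up as well, to 11.3% higher and 10.6% lower, and with the block to 9.27% and 8.68%, from 4.86% and 5.13%. Removing length and GC trends, chosen after seeing the data, gave 21 higher and 1 lower, beside 14.2% and 14.4% of all genes. Without untreated replicate 3 and flavonoids replicate 3, also chosen after seeing the data, 17 were higher, beside 7.25% of all genes. The median was then 0.34. The median was 0.20 with a pseudocount of 5 and 0.22 on the TPM scale, beside 0.27. Leaving out 1 library at a time gave 2 to 14 higher members, 0 lower, and medians of 0.22 to 0.34. The lowest count, 2, was that without untreated replicate 2, and the highest, 14, those without untreated replicate 1 or 3, where 0.567%, 7.64% and 5.51% of all genes were higher. Over 962 results of single members under the alternatives, 0 called members changed direction, 47 calls were lost, 41 were gained and 38 estimates that were not called changed sign. A trend removal also removes any true change that follows length or GC, and the cause of the differences was not tested.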

Other observations

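Summed FPKM by role differed between the groups for some roles and overlapped for others, as a description with no test. The 13 chaperone genes together measured 1853, 1731 and 1934 FPKM in untreated replicates 1, 2 and 3 and 2597, 2359 and 2340 FPKM in flavonoids replicates 1, 2 and 3. The 13 degradation genes summed to 519, 474 and 464 FPKM untreated and to 714, 694 and 726 FPKM treated, and the groups did not overlap in either sum. The 9 disulfide genes came to 1317 to 1450 FPKM and 1460 to 1581 FPKM, and so nearly touched. FPKM totals of whole libraries ran from 424479 to 524930, and the sums by role were not scaled for this. The 9 sensors and factors overlapped, at 265 to 306 FPKM untreated and 291 to 307 FPKM treated, and so did the 2 entry genes, at 67.5 to 111 FPKM and 109 to 126 FPKM. Hspa5 alone made up 8.51%, 8.09% and 9.29% of the sum over all 46 members untreated and 14.7%, 13.2% and 10.3% treated. The sums rest mostly on the few abundant members, with 11 of 44 tested members at a mean of at least 100 FPKM.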
